A study of Mus musculus with 12 samples.

Results

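Desmin, the intermediate filament protein of muscle cells, mesangial cells and pericytes, was examined together with 9 further genes of contractile, stromal and mesangial cells in newborn mouse kidneys. The 10 genes were Des, Acta2, Tagln, Myh11, Cnn1, Myl9, Pdgfrb, Pdgfra, Foxd1 and Vim, each taken as the row carrying its symbol, and all 10 were found among the 24062 gene symbols counted. They were selected because desmin was higher in both models of the study, so the set was selected on the desmin values of those comparisons, which are given below as a description without a test.

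Smooth muscle cells, pericytes and the mesangial cells of the glomerulus build a contractile apparatus from smooth muscle actin and myosin, held in place by filaments of desmin and vimentin. In the kidney these cells, with the interstitial fibroblasts, descend largely from Foxd1-expressing stromal progenitors, and platelet-derived growth factor signalling through its α and β receptors recruits and maintains them. Genes of the contractile apparatus are commonly driven by serum response factor (SRF), which binds a DNA element called the CArG box, together with its cofactor myocardin.

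Whole kidneys were collected at postnatal day 3, with 3 kidneys from 2 litters in each of 4 groups, and their RNA was sequenced. LIN28B Wt1 kidneys came from C57BL/6 mice carrying TRE-LIN28B, lox-STOP-lox-rtTA and Wt1-Cre, in which a doxycycline pulse of 1 day late in gestation induces human LIN28B in Wt1-expressing cells, that is, in kidney mesenchyme including cortical stroma and cap mesenchyme, and later in podocytes. Their controls were C57BL/6 littermates labelled wild type. The let-7 KO kidneys came from mice of mixed CD1 and C57BL/6 strain with a constitutive knockout of let-7a1, let-7d and let-7f1, which leaves the other let-7 genes in place, and were compared with wild type littermates. Because the LIN28B transgene is human and mature let-7 was not measured, neither targeted gene could be checked in these counts.

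The kidneys held between 39926235 and 61872736 counts each, and levels are given as CPM, which is the count relative to the library size, here scaled by the TMM method. Counting error is therefore small for these genes, and the spread between kidneys limits the comparisons. The kidney of litter 2 stood apart in LIN28B Wt1. Between LIN28B Wt1 kidneys 26 and 27, both of litter 1, the counts differed by a chi-square of 60.5 per gene, against 237.2 and 227.1 between these and kidney 30 of litter 2, and values that kidney 30 moves are given with and without it. Pairs within the other groups ranged from 31.6 to 239.1. Kidney identity was plain in every library, with proximal tubule markers summing to 809 to 2889 CPM and podocyte markers to 250 to 508 CPM. Brown fat genes were present in 2 of the 3 LIN28B control kidneys, where Ucp1 stood at 16.9 CPM (kidney 25) and 13.9 CPM (kidney 28), against at most 2.37 CPM in the other 10 kidneys. Nothing in the labels says whether kidneys of a litter were handled separately, so the p-values cover the spread between these kidneys.

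The sequences removed in the let-7 KO mice are shown first, since both models act on this microRNA family. The 3 mature microRNAs (RefSeq, GRCm38.p6, minus strand of chromosome 13, at chr13:48538239-48538260 for let-7a, chr13:48536078-48536099 for let-7d and chr13:48537889-48537910 for let-7f) share 1 seed, bases 2 to 8, written in capitals.
let-7a-5p: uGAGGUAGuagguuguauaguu
let-7d-5p: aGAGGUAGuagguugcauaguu
let-7f-5p: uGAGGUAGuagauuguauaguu
The letters pairing with that seed, CTACCTC, were looked for in every gene, in its longest 3′ UTR by GENCODE M21 on GRCm38. They occurred once each in Cnn1 and Myl9 and in none of the other 8 genes, against 10.4% of the 19274 genes searched. The alternative match TACCTCA occurred in none of the 10, against 10.9% of the genes searched. The 3′ UTR of Des, with 1529 bases, held neither. The 2 windows with a match are printed, with the match in capitals.
Cnn1 (chr9:22109560-22109587, plus strand): gaagatctgcCTACCTCtgtttcctgag
Myl9 (chr2:156781196-156781223, plus strand): tcccagtcacCTACCTCcccaacacata

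The 250 bases upstream of the start site are printed for Des and for Acta2 and Myl9, the 2 genes of the set found to hold a CArG box there (RefSeq start sites, GRCm38). CArG boxes, exact or with 1 mismatch in the central run of A and T, are written in capitals. Both strands were covered, since the box reads alike on either.
Des (chr1:75360042-75360291, plus strand): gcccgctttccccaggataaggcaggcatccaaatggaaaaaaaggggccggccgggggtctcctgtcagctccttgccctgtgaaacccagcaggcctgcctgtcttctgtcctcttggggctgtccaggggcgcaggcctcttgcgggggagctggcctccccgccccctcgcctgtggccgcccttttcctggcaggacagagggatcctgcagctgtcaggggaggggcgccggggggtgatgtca
Acta2 (chr19:34255374-34255623, minus strand): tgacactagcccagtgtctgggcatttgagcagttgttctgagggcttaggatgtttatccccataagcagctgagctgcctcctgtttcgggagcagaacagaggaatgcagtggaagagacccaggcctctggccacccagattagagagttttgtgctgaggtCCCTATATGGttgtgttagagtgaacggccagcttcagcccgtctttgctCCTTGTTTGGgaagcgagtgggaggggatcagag
Myl9 (chr2:156775214-156775463, plus strand): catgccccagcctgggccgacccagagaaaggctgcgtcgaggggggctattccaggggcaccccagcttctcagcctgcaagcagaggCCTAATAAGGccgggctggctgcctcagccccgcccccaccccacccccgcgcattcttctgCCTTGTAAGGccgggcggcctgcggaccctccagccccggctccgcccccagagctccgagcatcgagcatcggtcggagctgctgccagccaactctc
Acta2 held 2 boxes with 1 mismatch, starting 84 and 34 bases before the start site. Myl9 held 1 exact box and 1 with a mismatch, starting 161 and 99 bases before it. Of the 7 genes with a window in the promoter table, Des, Cnn1, Pdgfra, Foxd1 and Vim held none, which says nothing of sites farther away, and Tagln, Myh11 and Pdgfrb were not searched. Cnn1, which like Des held no box in its window, varied with Acta2 and Myl9 from kidney to kidney, as given below. Any part of the boxes in the values was not tested. Among 32851 windows of all genes, 1.47% held an exact box and 8.59% a box with at most 1 mismatch.

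Compared per length, as CPM per kilobase of annotated exon, the light chain Myl9 and the actin Acta2 were the highest of the 10 genes in LIN28B control kidneys, at 376 ± 60.5 and 243 ± 18.1 CPM per kilobase (SD, n = 3). Vim followed at 52.1 ± 5.47 and Tagln at 46.1 ± 3.08 CPM per kilobase, and the ranges of these 2 genes overlapped. The length used is all annotated exon bases, 4743 for Vim against 2193 in its longest coding transcript, and 1988 for Tagln against 1595. The order of genes therefore depends on the length chosen. Pdgfrb stood at 21.2 ± 1.93 and Pdgfra at 7.98 ± 1.06 CPM per kilobase. Des, at 5.96 ± 1.09 CPM per kilobase, lay among the low genes beside Cnn1 at 5.77 ± 0.386, and their ranges overlapped, with Myh11 at 4.15 ± 0.915 and Foxd1 at 2.46 ± 0.448 below. In LIN28B Wt1 kidneys Des ranked 5 of 10 at 17.2 ± 0.865 CPM per kilobase, between Tagln at 52.3 ± 17.4 and Pdgfrb at 12.1 ± 1.82, without overlap with either. The order in let-7 WT kidneys was less sharply drawn, and the ranges of Pdgfrb, Cnn1, Pdgfra, Des, Myh11 and Foxd1 overlapped from each gene to the next.

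Desmin was higher in both models, by description. Des (chr1:75360329-75368579, plus strand, 9 exons) stood at 17.7, 24.99 and 24.4 CPM in the LIN28B control kidneys and at 68.0, 63.3 and 61.8 CPM in the LIN28B Wt1 kidneys. In the let-7 experiment it stood at 18.3, 22.8 and 18.6 CPM in WT kidneys and at 32.3, 45.3 and 40.9 CPM in KO kidneys. In whole kidneys, more or fewer cells of a type and more or less RNA per cell cannot be told apart, for Des or any gene below. The groups did not overlap in either experiment, and the 3 LIN28B Wt1 kidneys were also above the 3 let-7 KO kidneys. The log2 fold change was 1.53 (SE 0.18) in LIN28B Wt1, or 2.88-fold, and 0.97 (SE 0.23) in let-7 KO, or 1.96-fold. Within litters, the mutant mean was 3.08 and 2.53 times the control mean in litters 1 and 2 of the LIN28B experiment, and 1.89 and 2.20 times it in the let-7 experiment.

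**Figure D1:**
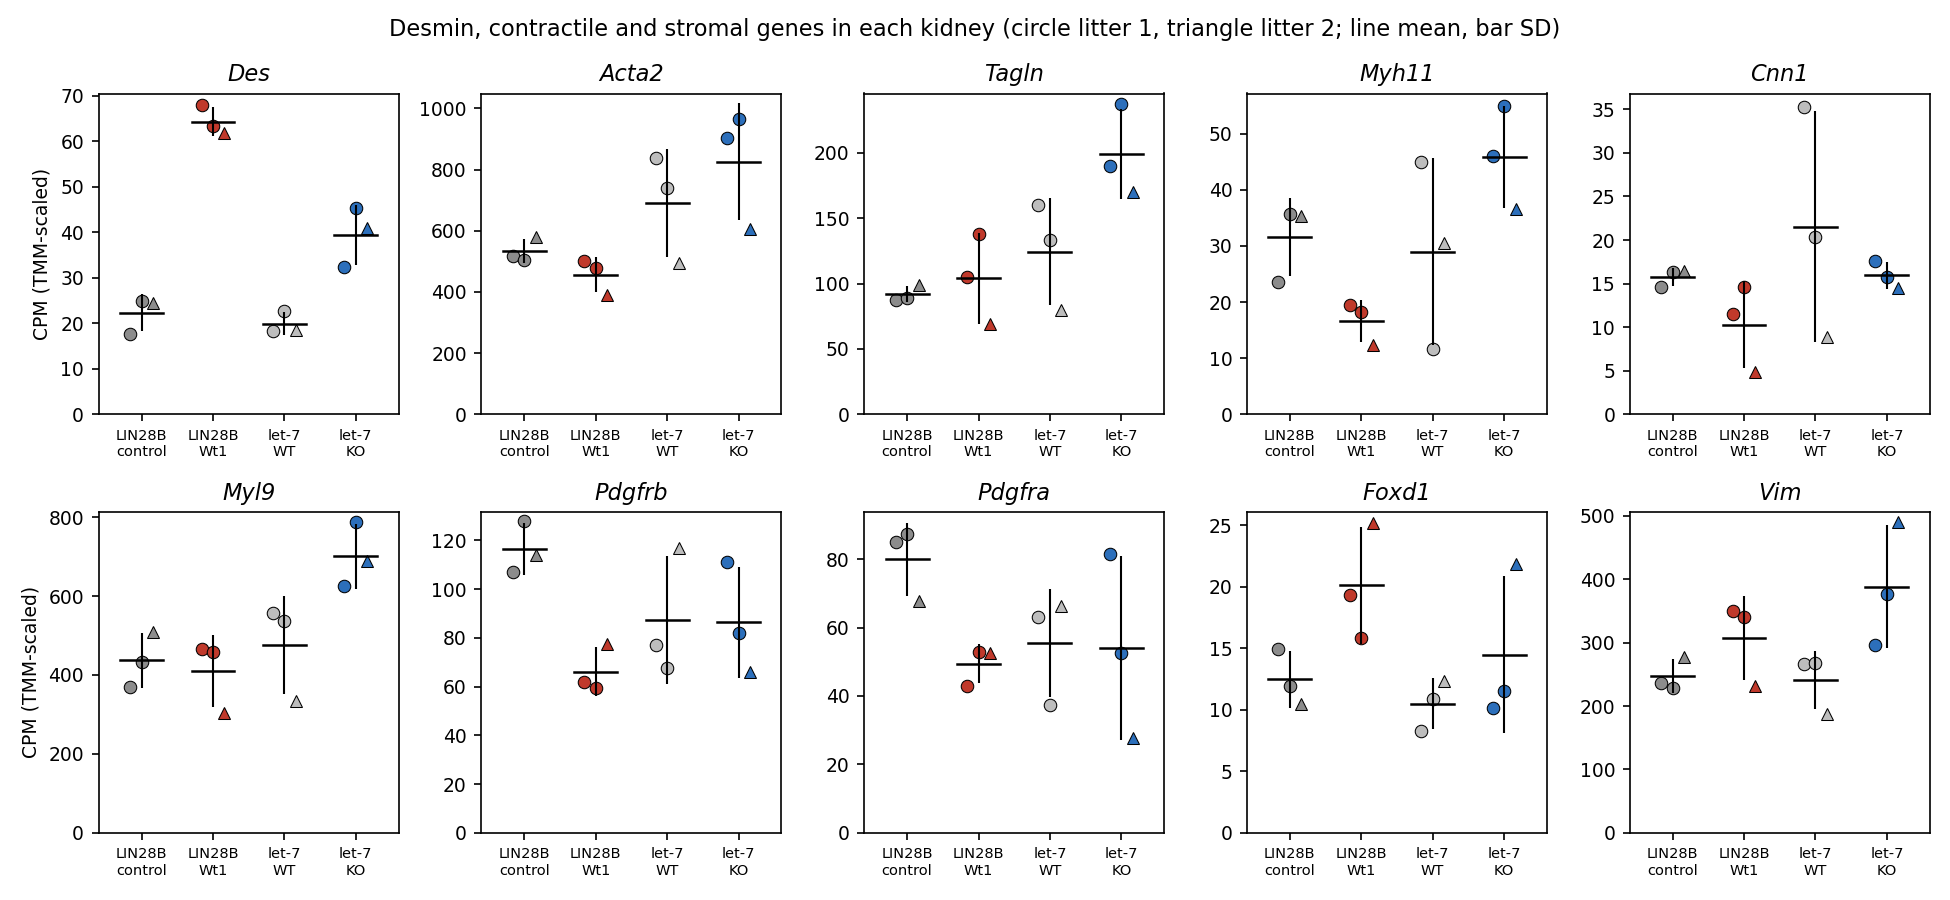
Level of each of the 10 genes in each kidney, in TMM-scaled CPM (y axis, from 0) by group (x axis); circles are kidneys of litter 1, triangles of litter 2, lines group means and bars SD (n = 3). Des separates both mutant groups from their controls, whereas Pdgfrb and Pdgfra are lower in all LIN28B Wt1 kidneys than in all their controls and overlap in the let-7 experiment.

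Markers of skeletal muscle, which also contains desmin, were low in the libraries. Of 13 skeletal muscle markers, Myh1, Myh2, Myh4 and Myh8 held no count in any kidney, and the master regulator Myod1 reached at most 0.0187 CPM. The globin genes Hbb-bs and Hba-a1 also held no count in any kidney, so a count of 0 in these files does not by itself show that a gene was silent. Tnni2, a troponin of fast muscle fibres, was higher in every LIN28B Wt1 kidney than in every control, at 1.05 to 2.32 CPM against 0.0459 to 0.552 CPM (adjusted p = 0.227), and stood at 0 to 0.289 CPM in let-7 WT and 0.132 to 2.01 CPM in let-7 KO kidneys. Ckm, Myh3 and Myog reached 0.675, 1.43 and 0.823 CPM in LIN28B Wt1 kidneys, though none was found in all of them. In the other groups Ckm held no count, Myh3 reached at most 0.0229 CPM and Myog at most 0.0681 CPM. Of the 5 markers tested in LIN28B Wt1, 3 had a log2 fold change above 0 and 2 below. The part of these markers in the desmin values was not tested. Summed over the list, skeletal muscle markers stood at 6.46 to 8.90 CPM in LIN28B control, 7.39 to 14.5 CPM in LIN28B Wt1, 3.95 to 6.55 CPM in let-7 WT and 4.43 to 10.7 CPM in let-7 KO kidneys. The ranges of mutant and control kidneys overlapped in both experiments, and each sum lay below the desmin level of its own group. The 6 heart muscle markers summed to at most 8.37 CPM in any kidney.

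The first question was whether the other 9 genes followed desmin in LIN28B Wt1 kidneys. None of the 9 passed an adjusted p below 0.05 in edgeR's quasi-likelihood test, in a comparison where 1.23% of the 15793 genes tested did. At an unadjusted p below 0.05, 1 was higher and 3 were lower, against 18.0% of all genes in either direction. With DESeq2, 3 passed an adjusted p below 0.05, all lower (Pdgfrb, Pdgfra and Myh11), against 7.89% of all genes. The same 3 were, in edgeR, past the threshold of the study, an unadjusted p below 0.01, with 4.08% of all genes past it in that direction. The median log2 fold change of the 9 was -0.22, against -0.02 over all genes tested, and 6 of the 9 lay below 0.

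The receptors of platelet-derived growth factor, which mark pericytes, mesangial cells and fibroblasts, were lower in LIN28B Wt1 kidneys. Pdgfrb stood at 107, 128 and 114 CPM in control kidneys and at 61.7, 59.2 and 77.5 CPM in LIN28B Wt1 kidneys. Every LIN28B Wt1 kidney was below every control, with a log2 fold change of -0.81 (SE 0.16), or 42.9% lower. The adjusted p of 0.05003 lay at the threshold without passing it. Pdgfra (chr5:75152292-75198215, plus strand), at 84.9, 87.3 and 67.8 CPM in control kidneys, stood at 42.8, 53.0 and 52.7 CPM in LIN28B Wt1 kidneys. Its groups did not overlap either, with a log2 fold change of -0.69 (SE 0.17, adjusted p = 0.0799). Without LIN28B Wt1 kidney 30 both passed, Pdgfrb with -0.95 (adjusted p = 0.00388) and Pdgfra with -0.75 (adjusted p = 0.0237). With any other single kidney left out neither passed, at adjusted p = 0.131 to 0.267 for Pdgfrb and 0.128 to 0.351 for Pdgfra. The number of all genes passing also moved widely with the kidney left out. Pdgfrb also passed with upper-quartile normalization (adjusted p = 0.0434), without a filter on low counts (0.039) and with at least 1 CPM required in every kidney (0.0221), with values of -0.80 to -0.81. It did not pass with RLE scaling (adjusted p = 0.0537), library totals alone (0.0527), litter as a replicate block (0.0807) or 1 fit of all 12 kidneys (0.099). With both brown fat containing controls left out, the log2 fold changes were -0.78 for Pdgfrb and -0.45 for Pdgfra, and the sole remaining control was assumed to vary like the LIN28B Wt1 kidneys. The ratio of the receptors differed little, with 59.6 to 79.4 Pdgfra counts for every 100 Pdgfrb counts in controls and 67.9 to 89.5 in LIN28B Wt1 kidneys. Endothelial genes, which mark the vessels that pericytes line, were also lower: their sum over 5 genes was 350 to 409 CPM in controls and 250 to 252 CPM in LIN28B Wt1 kidneys. The part of vessel content in the receptor values was not tested.

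Myh11, the heavy chain of smooth muscle myosin (chr16:14194535-14291372, minus strand), stood at 23.5, 35.7 and 35.4 CPM in LIN28B control kidneys and at 19.4, 18.2 and 12.3 CPM in LIN28B Wt1 kidneys. The groups did not overlap, and the log2 fold change was -0.92 (SE 0.25, adjusted p = 0.101), or -0.75 without kidney 30 (adjusted p = 0.069), where it was no longer past the unadjusted 0.01. Acta2, smooth muscle α-actin (chr19:34241090-34255590, minus strand), stood at 516, 506 and 579 CPM in control kidneys and at 501, 478 and 391 CPM in LIN28B Wt1 kidneys. Its groups only just failed to overlap, with a log2 fold change of -0.22 (SE 0.13, adjusted p = 0.417). In all, 4 of the 9 genes were lower in every LIN28B Wt1 kidney than in every control (Acta2, Myh11, Pdgfrb and Pdgfra), against 13.5% of all genes. Foxd1 alone was higher in every kidney, against 10.3% of all genes. For every 100 Acta2 counts there were 3.42 to 4.94 Des counts in controls and 13.2 to 15.8 in LIN28B Wt1 kidneys, a ratio taken within each kidney that no library scaling affects. This ratio rests on the Des values that chose the set, so it is a description and adds no separate support. In the let-7 experiment the same ratio overlapped between groups, at 2.19 to 3.75 in WT and 3.58 to 6.74 in KO kidneys. Acta2 shares near-identical coding sequence with other actin genes, Actg2 among them, and how reads matching several genes were counted is not given, so the actin values are uncertain to that extent.

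In the other contractile genes the LIN28B Wt1 kidney of litter 2, kidney 30, differed from those of litter 1, and with 1 such kidney the litter and the kidney cannot be told apart. Tagln, the actin-binding protein transgelin (chr9:45929619-45936058, minus strand), was at 87.6, 88.7 and 98.7 CPM in controls and at 105, 138 and 68.7 CPM in LIN28B Wt1 kidneys. Cnn1, the actin-binding protein calponin (chr9:22099216-22109630, plus strand), was at 14.6, 16.3 and 16.5 CPM and at 11.5, 14.6 and 4.81 CPM. Myl9, the regulatory myosin light chain (chr2:156775420-156781658, plus strand), was at 369, 433 and 509 CPM and at 467, 458 and 304 CPM. Of the 1988 exon bases of Tagln, 1241 also lie in exons of an antisense gene, and without strand the reads of both cannot be told apart. In each of these 3 genes kidney 30 of litter 2 was the lowest of the 3 LIN28B Wt1 kidneys, and the groups overlapped. The mutant mean of Tagln was 1.38 times the control mean in litter 1 and 0.697 times it in litter 2, that of Myl9 1.15 and 0.596 times, and that of Cnn1 0.845 and 0.292 times. The log2 fold changes were 0.18 for Tagln (SE 0.22), -0.62 for Cnn1 (SE 0.37) and -0.09 for Myl9 (SE 0.18), with adjusted p = 0.426 or above. That of Tagln lay between -0.05 and 0.40 and that of Myl9 between -0.20 and 0.08 when each kidney was left out in turn, so neither had a stable sign. That of Cnn1 was -0.28 without kidney 30.

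Foxd1, the transcription factor of stromal progenitors (chr13:98354242-98359305, plus strand), stood at 14.95, 11.9 and 10.5 CPM in LIN28B control kidneys and at 19.3, 15.8 and 25.2 CPM in LIN28B Wt1 kidneys. All 3 LIN28B Wt1 kidneys were above all controls, with a log2 fold change of 0.70 (SE 0.26, adjusted p = 0.199), or 0.49 without kidney 30. Cap mesenchyme genes, which mark the nephron progenitors lying beside the Foxd1 stroma, summed to 63.2 to 78.7 CPM in controls and to 322 to 381 CPM in LIN28B Wt1 kidneys, and 5 of the 6 passed the adjusted threshold, all higher. Kidney 30 was the highest in both measures, and the part of the progenitors in the Foxd1 values was not tested. Vim, the intermediate filament protein of mesenchymal cells (chr2:13573927-13582826, plus strand), stood at 237, 228 and 277 CPM in controls and at 350, 341 and 231 CPM in LIN28B Wt1 kidneys. The kidneys of litter 1 were high and kidney 30 was within the control range, giving a log2 fold change of 0.32 (SE 0.17, adjusted p = 0.378), which without kidney 30 became 0.48 (adjusted p = 0.0225). With any other single kidney left out Vim did not pass, at adjusted p = 0.354 to 0.72.

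**Figure D2:**
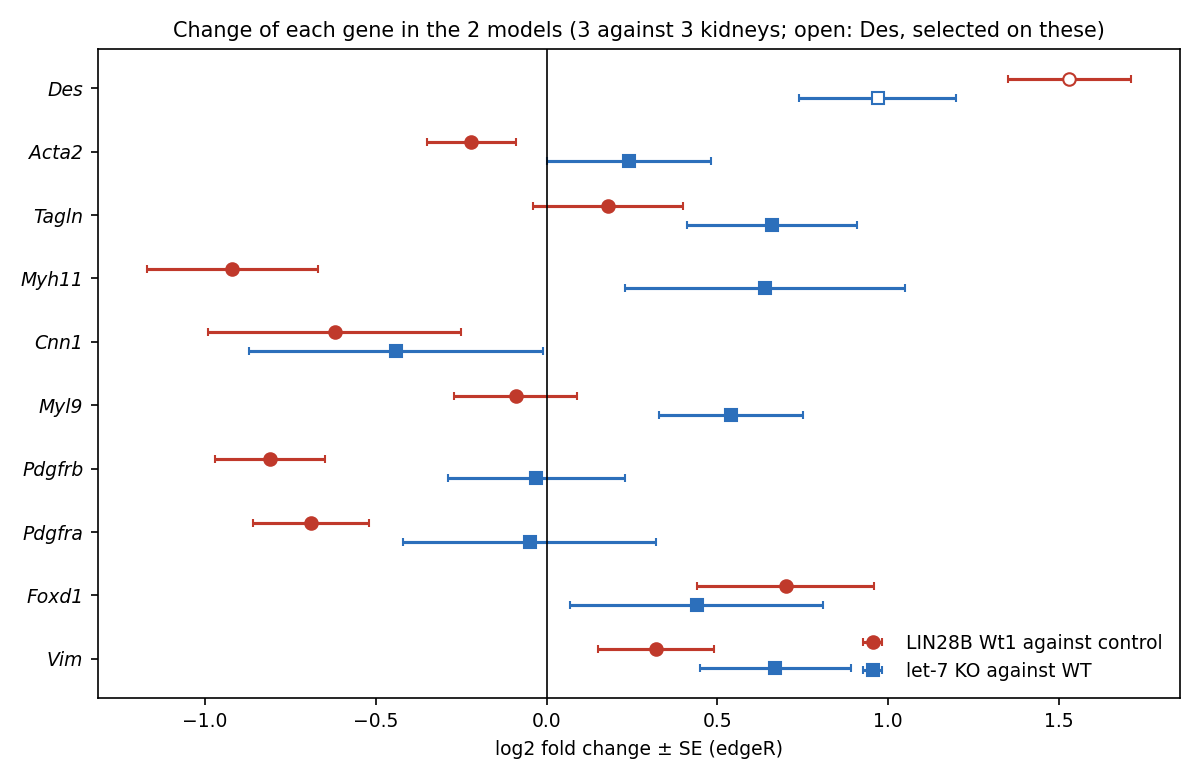
Log2 fold change (x axis) of each of the 10 genes in LIN28B Wt1 against control kidneys (circles) and let-7 KO against WT kidneys (squares), 3 against 3, with bars for the standard error; open symbols mark Des, whose values chose the set. In LIN28B Wt1 the points spread from -0.92 (Myh11) to 1.53 (Des), and in let-7 KO from -0.44 (Cnn1) to 0.97 (Des).

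In let-7 KO kidneys the other 9 genes lay mostly above their controls without passing the test. None of the 9 passed an adjusted p below 0.05 in edgeR, where 0.0194% of the 15500 genes tested did, and none of the 7 that DESeq2 gave an adjusted p passed there, where 1.31% of all genes did. None was past the unadjusted threshold of 0.01 in edgeR, against 2.73% of all genes. With DESeq2, 3 were past it, all higher (Tagln, Myl9 and Vim), against 2.97% of all genes in that direction. At an unadjusted p below 0.05, 3 were higher and none lower, against 10.8% of all genes in either direction. These 3, Tagln, Myl9 and Vim, were also the 3 whose KO kidneys all lay above all WT kidneys, which 7.87% of all genes did. The median log2 fold change of the 9 was 0.44, against -0.02 over all genes, and 6 of the 9 lay above 0.

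Tagln stood at 160, 133 and 79.6 CPM in let-7 WT kidneys and at 190, 237 and 170 CPM in KO kidneys, with a log2 fold change of 0.66 (SE 0.25, adjusted p = 0.395). Myl9 stood at 556, 538 and 334 CPM in WT kidneys and at 625, 789 and 688 CPM in KO kidneys, with a log2 fold change of 0.54 (SE 0.21, adjusted p = 0.405). Vim stood at 267, 268 and 188 CPM in WT kidneys and at 297, 377 and 491 CPM in KO kidneys, with a log2 fold change of 0.67 (SE 0.22, adjusted p = 0.37). In all 3 genes WT kidney 33, of litter 2, was the lowest of the 6, and without it the log2 fold changes were 0.42 for Tagln, 0.33 for Myl9 and 0.51 for Vim. Within litters, the KO mean of Vim was 1.26 times the WT mean in litter 1 and 2.60 times in litter 2, that of Tagln 1.45 and 2.14 times, and that of Myl9 1.29 and 2.06 times. For these genes and for Des all KO kidneys lay above all WT kidneys. The direction could therefore only be the same in both litters, which adds no separate support.

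The remaining contractile genes overlapped between let-7 KO and WT kidneys. Acta2 stood at 838, 739 and 495 CPM in WT kidneys and at 904, 966 and 607 CPM in KO kidneys, with the kidney of litter 2 lowest in both groups, and its log2 fold change was 0.24 (SE 0.24, adjusted p = 0.758). Myh11 stood at 44.9, 11.6 and 30.5 CPM in WT kidneys and at 46.0, 54.9 and 36.6 CPM in KO kidneys. Most of the difference came from WT kidney 32, and the log2 fold change was 0.64 (SE 0.41, adjusted p = 0.594), and 0.27 without that kidney. Cnn1 stood at 35.3, 20.4 and 8.89 CPM in WT kidneys and at 17.6, 15.8 and 14.5 CPM in KO kidneys, so the KO kidneys lay inside the WT range, with a log2 fold change of -0.44 (SE 0.43, adjusted p = 0.747).

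Neither receptor nor Foxd1 separated let-7 KO from WT kidneys. Pdgfrb stood at 77.1, 67.7 and 117 CPM in WT kidneys and at 111, 82.1 and 66.0 CPM in KO kidneys, with a log2 fold change of -0.03 (SE 0.26, adjusted p = 0.979). Pdgfra stood at 63.0, 37.3 and 66.2 CPM and at 81.4, 52.7 and 27.7 CPM, with a log2 fold change of -0.05 (SE 0.37, adjusted p = 0.974). Both receptors were higher in KO than in WT kidneys in litter 1, by 1.33 and 1.34 times, and lower in litter 2, at 0.564 and 0.419 times the WT level. Foxd1 stood at 8.28, 10.9 and 12.3 CPM in WT kidneys and at 10.1, 11.5 and 21.8 CPM in KO kidneys, with a log2 fold change of 0.44 (SE 0.37, adjusted p = 0.704), or 0.03 without KO kidney 36. This high kidney, number 36 of litter 2, also had the highest cap mesenchyme sum of the 6, at 116 CPM, against 47.4 to 50.3 CPM in WT kidneys. The other KO kidneys, whose Foxd1 lay inside the WT range, summed to 75.1 and 77.6 CPM. The part of the progenitors in the Foxd1 values was not tested.

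Whether the models differed was tested as an interaction in 1 fit of all 12 kidneys. Of the 9 genes other than Des, none passed an adjusted p below 0.05 in edgeR, where 0.00602% of the 16598 genes tested did, and none with DESeq2, where 0.609% did. At an unadjusted p below 0.05, 3 genes had a lower value in the LIN28B model and none a higher value, against 6.27% of all genes in either direction. Myh11, lower in LIN28B Wt1 and higher in let-7 KO kidneys, was the sole member past an unadjusted 0.01, with a difference of log2 fold changes of -1.58 (SE 0.53, adjusted p = 0.633), against 1.04% of all genes in that direction. The difference was -0.79 for Pdgfrb (SE 0.32, adjusted p = 0.722) and -0.65 for Myl9 (SE 0.30, adjusted p = 0.789). For Des, given without a test, it was 0.54 (SE 0.29). The models also differ in strain and experiment, so a difference between them could not be assigned to the alleles alone.

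The unmutated kidneys of both experiments were compared as well, with Des again as a description, since these kidneys are the controls of the desmin differences that chose the genes. None of the other 9 passed an adjusted p below 0.05 between let-7 WT and LIN28B control kidneys in edgeR, where 1.19% of the 15850 genes tested did, and none with DESeq2, where 4.30% did. At an unadjusted p below 0.05, Pdgfra alone was past the threshold in edgeR, against 12.7% of all genes, and 4 of the 9 were with DESeq2, against 14.3%. Desmin averaged 22.4 ± 4.07 CPM in LIN28B controls and 19.9 ± 2.52 CPM in let-7 WT kidneys (SD, n = 3), a log2 fold change of -0.17 (SE 0.21). Pdgfra averaged 80.0 ± 10.6 and 55.5 ± 15.9 CPM, a log2 fold change of -0.53 (SE 0.22, adjusted p = 0.353). It was the sole member whose let-7 WT kidneys all lay below the LIN28B controls, which 10.2% of all genes did. Strain, experiment and doxycycline cannot be told apart in this comparison, and brown fat genes also differed in it, with adjusted p = 0.00528 for Ucp1.

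The spread from kidney to kidney within groups gave a further description, as the correlation over the 12 kidneys of deviations from the group mean on the log2 scale. Acta2, Tagln, Cnn1 and Myl9 formed 1 block, with Pearson correlations from 0.73 (Acta2 and Myl9, Spearman 0.68) to 0.93 (Tagln and Cnn1, Spearman 0.81). Without the 2 kidneys farthest from the median the 6 pairs ranged from 0.55 (Cnn1 and Myl9) to 0.80. The receptors formed another, with a Pearson correlation of 0.78 between Pdgfrb and Pdgfra (Spearman 0.62, and 0.68 without 2 kidneys). Vim ran opposite to Pdgfrb, at -0.91 (Spearman -0.83, and -0.85 without 2 kidneys). With Myl9 it correlated at 0.79 (Spearman 0.63, and 0.59 without 2 kidneys), but with Acta2 at 0.25. Foxd1 ran opposite to Acta2, at -0.83 (Spearman -0.72, and -0.75 without 2 kidneys). Myh11 belonged to neither block, with Pearson correlations of 0.20 to 0.33 with Acta2, Tagln, Cnn1 and Myl9 (Spearman 0.25 to 0.37). With Pdgfrb and Pdgfra it stood at 0.29 and 0.47. Desmin likewise belonged to neither. Its Pearson correlation was 0.12 with Acta2 (Spearman 0.13, and 0.32 without 2 kidneys), 0.23 with Tagln (Spearman 0.38, and 0.27 without 2 kidneys) and -0.08 with Myh11 (Spearman 0.10, and -0.38 without 2 kidneys). The highest was with Myl9, at 0.55 (Spearman 0.41, and 0.47 without 2 kidneys), and the lowest with Pdgfra, at -0.58 (Spearman -0.45, and -0.44 without 2 kidneys). Among 11821 genes with a mean of at least 5 CPM, Myl9 ranked at 1610 and Acta2 at 4780 in likeness to Des. The 5 genes most like it were Rasgef1b (Pearson 0.94), Cwf19l2 (0.93), Rnls (0.93), Btbd6 (0.91) and Rnf126 (0.91), and none of them belongs to the lists examined here. The kidneys share library depth and cell make-up, so these values are no evidence of shared control.

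**Figure D3:**
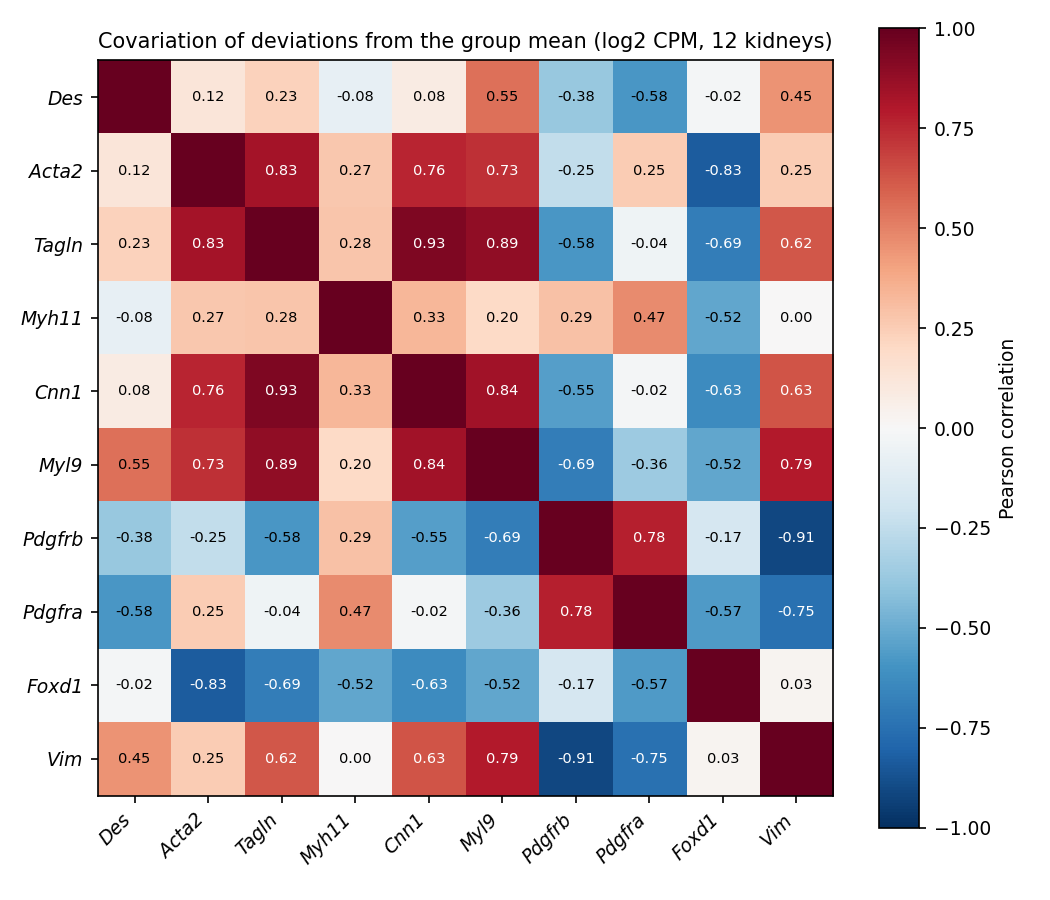
Pearson correlation (color, from -1 to 1) of the deviations of each pair of the 10 genes from their group means, in log2 CPM over 12 kidneys. Acta2, Tagln, Cnn1 and Myl9 form a red block, Pdgfrb and Pdgfra a red pair opposed to Vim, and the rows of Des and Myh11 stay between -0.58 and 0.55.

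Related genes were counted in lists that were written with earlier results known. Of 15 other contractile genes, 15 were tested and none passed an adjusted p below 0.05 in edgeR in either model. Their median log2 fold change stood at -0.17 for LIN28B Wt1 kidneys and 0.28 for let-7 KO, against -0.02 over all genes in each, and 10 lay below 0 in the first and 11 above 0 in the second. Actg2, the smooth muscle γ-actin of gut and urinary tract, stood at 6.68, 9.52 and 4.99 CPM in let-7 WT kidneys and at 26.01, 26.4 and 12.6 CPM in KO kidneys, with a log2 fold change of 1.60 (SE 0.39, adjusted p = 0.358). In LIN28B Wt1 its groups overlapped, with 0.32 (SE 0.28). Synpo2, an actin-binding protein of the muscle Z-disc, differed likewise, with 1.07 in let-7 KO (SE 0.38, adjusted p = 0.379) and -0.23 in LIN28B Wt1 (SE 0.28). Kcnmb1, a potassium channel subunit of smooth muscle, was low and variable, with -1.20 in LIN28B Wt1 (SE 1.10) and -0.11 in let-7 KO (SE 0.71). Urothelial markers, which come from the pelvis and ureter where smooth muscle is also found, summed to 118 to 233 CPM in LIN28B control and 25.1 to 96.0 CPM in LIN28B Wt1 kidneys. In the let-7 experiment they summed to 59.5 to 101 CPM in WT and 70.2 to 157 CPM in KO kidneys. The part of pelvic tissue in the contractile values was not tested.

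SRF and its cofactors gave no passing gene among 4 tested in either model. Myocd, which encodes myocardin, was at most 2.91 CPM in any kidney, with log2 fold changes of 0.08 in LIN28B Wt1 (SE 0.71) and -1.61 in let-7 KO (SE 1.73). Mkl2, in the same order with 0.30 (SE 0.20) and 0.39 (SE 0.26), and Mkl1, with 0.23 (SE 0.21) and -0.19 (SE 0.37), encode the related cofactors. Their groups overlapped in both models.

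Among 8 partners of intermediate filaments, all tested, none passed in either model. Their median log2 fold change was -0.02 in LIN28B Wt1, equal to that over all genes, and 5 of the 8 lay below 0. In let-7 KO it was 0.32, against -0.02 over all genes, and 7 of the 8 lay above 0. The 3 genes named below are the 3 that lay above 0 in LIN28B Wt1. Nes, which encodes nestin, an intermediate filament protein of progenitor and mesenchymal cells, stood at 69.7, 64.6 and 75.7 CPM in LIN28B control kidneys and at 142, 135 and 77.0 CPM in LIN28B Wt1 kidneys, with a log2 fold change of 0.75 (SE 0.22, adjusted p = 0.119). In the let-7 experiment it stood at 70.1, 50.5 and 43.7 CPM in WT and at 70.7, 121 and 116 CPM in KO kidneys, with 0.88 (SE 0.25, adjusted p = 0.362). The groups did not overlap in either model, by narrow margins at kidneys 30 and 34. The epithelial keratin Krt18 had log2 fold changes, LIN28B Wt1 first and let-7 KO second, of 0.60 (SE 0.23, adjusted p = 0.203) and 0.87 (SE 0.23, adjusted p = 0.362). Synm, the desmin-binding synemin, was low, at 0 to 5.53 CPM, and its log2 fold changes of 1.31 and 0.28 had standard errors of 0.90 and 1.43.

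The ligands and the pericyte genes were examined beside the receptors. None of the 4 platelet-derived growth factor genes passed in either model. Pdgfd, a ligand of the β receptor, stood at 22.9, 25.9 and 16.5 CPM in LIN28B controls and at 9.12, 7.72 and 15.2 CPM in LIN28B Wt1 kidneys, with a log2 fold change of -1.02 (SE 0.31, adjusted p = 0.13). Pdgfb, the ligand that endothelial cells release to recruit pericytes, had -0.55 (SE 0.22, adjusted p = 0.215), and Pdgfa, a ligand of the α receptor, 0.21 (SE 0.23, adjusted p = 0.709). In let-7 KO the log2 fold changes of these 3 were -0.57, -0.07 and 0.29, with adjusted p = 0.584 or above.

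Of 10 genes of pericytes, mesangial and renin cells, 9 were tested and none passed in either model. All 9 lay below 0 in LIN28B Wt1, with a median log2 fold change of -0.39, and 8 of 9 in let-7 KO, with a median of -0.32, against -0.02 over all genes in each. Those counted below 0 in let-7 KO included Mcam (-0.01) and Kcnj8 (-0.03), which hardly differed. At an unadjusted p below 0.05 in edgeR, 4 of the 9 were lower in LIN28B Wt1, against 18.0% of all genes in either direction. In let-7 KO 2 of the 9 were lower, against 10.8%, and none was higher in either model. The genes of the list summed to 865 to 918 CPM in LIN28B control and 643 to 786 CPM in LIN28B Wt1 kidneys, and 760 to 771 CPM in let-7 WT and 585 to 654 CPM in KO kidneys. Serpine2, a secreted protease inhibitor and the most abundant of them, made up much of the sum, averaging 413 CPM in LIN28B control and 316 CPM in LIN28B Wt1 kidneys, and 363 and 270 CPM in let-7 WT and KO kidneys. Gene by gene, 5 of the 9 were lower in every LIN28B Wt1 kidney than in every control, against 13.5% of all genes. In let-7 KO 2 of the 9 were lower in every KO kidney than in every WT kidney, against 8.79% of all genes. Abcc9, a potassium channel subunit of pericytes, had log2 fold changes, again LIN28B Wt1 first, of -1.10 (SE 0.36, adjusted p = 0.149) and -0.86 (SE 0.49, adjusted p = 0.552). Notch3, a receptor of mural cells, had -0.56 (SE 0.29, adjusted p = 0.354) and -0.80 (SE 0.25, adjusted p = 0.366). Rgs5, a regulator of G protein signalling in pericytes, had -0.52 (SE 0.17, adjusted p = 0.15) and -0.53 (SE 0.32, adjusted p = 0.577). Renin itself, Ren1, held 1 count in 12 kidneys, so the defining gene of renin cells was not measured here.

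None of 14 stromal and interstitial genes passed in either model, with a median log2 fold change of -0.04 for LIN28B Wt1 kidneys, against 0.10 for let-7 KO kidneys. In LIN28B Wt1, 7 lay above 0 and 7 below 0. At an unadjusted p below 0.05 in edgeR, 3 were higher there and 4 lower, against 18.0% of all genes in either direction. In let-7 KO, 9 lay above 0 and 5 below, and 2 were higher and none lower at that threshold, against 10.8%. Tbx18, a transcription factor of ureteric and mural mesenchyme, had log2 fold changes, in the same order, of 0.77 (SE 0.77) and 1.02 (SE 0.84) at levels of at most 3.87 CPM. Ntn1, the secreted guidance factor netrin-1, had 0.60 (SE 0.18, adjusted p = 0.131) and 0.14 (SE 0.30, adjusted p = 0.909).

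**Figure D4:**
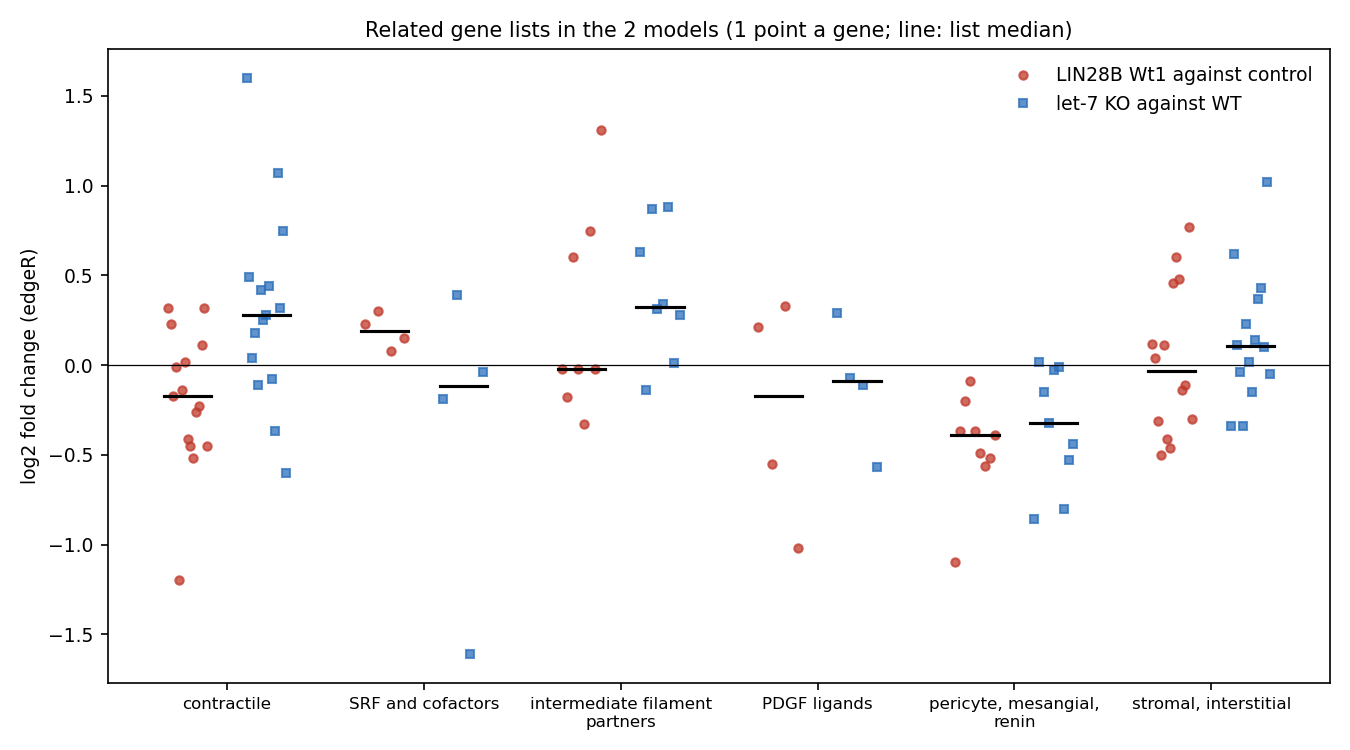
Log2 fold change (y axis) of each tested gene of 6 related lists in LIN28B Wt1 (circles) and let-7 KO (squares), with a black line at each list's median. The contractile medians are -0.17 and 0.28, and the pericyte, mesangial and renin medians are -0.39 and -0.32; no gene shown passed an adjusted p below 0.05.

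**Figure D5:**
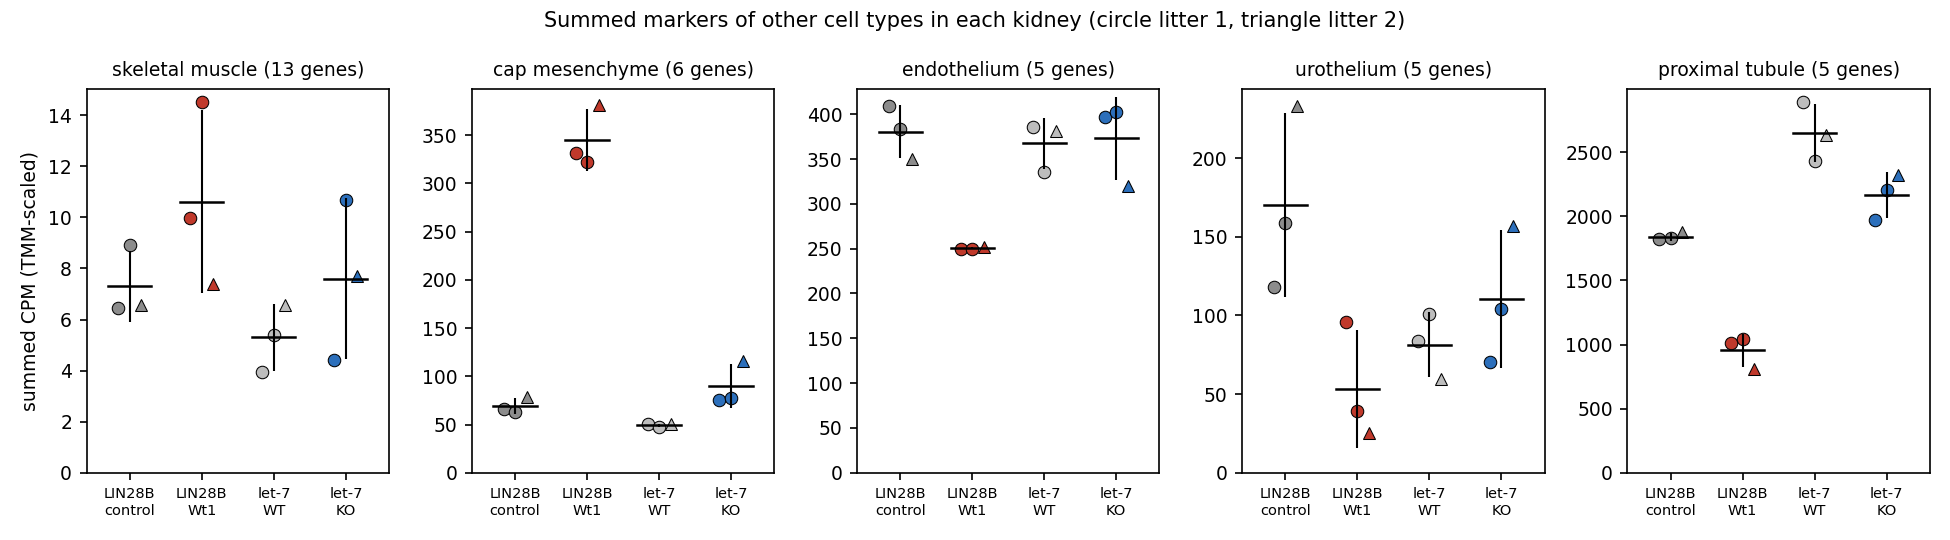
Summed CPM (y axes, from 0) of marker lists of other cell types in each kidney by group; circles are kidneys of litter 1, triangles of litter 2, lines means and bars SD (n = 3). Skeletal muscle sums stay at or below 14.5 CPM, cap mesenchyme is highest in LIN28B Wt1 (322 to 381 CPM), and endothelium, urothelium and proximal tubule are lower there than in the LIN28B controls.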

How the data were processed

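RNA from 12 whole kidneys was sequenced from SMARTer Ultra Low libraries on an Illumina HiSeq. The authors deposited a file of unnormalized counts by gene symbol for every kidney; the submitters' processing notes name cutadapt, TopHat2 2.0.9, Bowtie2, SAMtools 0.1.19, HTSeq and mm10. The annotation release and strand setting are not given in the sources used here. Of the symbols, 94.4% matched GENCODE M21, the source of lengths and positions.

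Fits were made separately for each model with edgeR 4.0.16 under R 4.3.3, using filterByExpr (minimum count 10, total 15), TMM scaling, the quasi-likelihood test and Benjamini-Hochberg adjustment over all genes tested. Deviations used log2(CPM + 0.5). A depth of 3 counts equals 0.0485 to 0.0751 CPM. DESeq2 1.42.0 and other scalings, filters and fits were alternatives. The scripts were tested on simulated counts.

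The members and lists were chosen with earlier results of these data known. All 10 members are named in every kidney. From each list are named the genes with an adjusted p below 0.05 in either model or, with none, up to 3 with the largest mean absolute change, and the 5 genes most correlated with Des. A stromal gene that this rule names is not reported here. Serpine2, Mcam, Kcnj8 and single cell type markers (Ucp1, Myod1, Myog, Ckm, Ren1, Myh1, Myh2, Myh3, Myh4, Myh8, Tnni2, Hbb-bs and Hba-a1) were named after their values were seen. The labels give litters, so the pairing is by litter: the deviations of the 2 kidneys of litter 2 correlated at -0.19 (LIN28B) and -0.07 (let-7) over 16598 genes.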

Additional observations from a re-analysis of the deposited data

How the results depend on the processing

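Of 565 alternative values of the 36 log2 fold changes of the 9 genes other than Des, 538 kept their direction and side of the threshold, 9 passed it only under the alternative and 18 changed sign, none of these 18 with a passing p. Cnn1 and Foxd1 were given no adjusted p by DESeq2 in let-7 KO and are not counted there. The log2 fold changes of Des, which were not tested, kept their sign in all 63 alternatives. With each kidney left out in turn, that of LIN28B Wt1 lay between 1.38 and 1.61 and that of let-7 KO between 0.87 and 1.09. Those between controls and between models lay at -0.32 to -0.09 and at 0.39 to 0.65. Among the 9 genes other than Des, the number passing in LIN28B Wt1 was 0 as reported and 3 with DESeq2, 1 with upper-quartile scaling, 1 without a filter, 1 with at least 1 CPM in every kidney and 3 at the unadjusted threshold. Leaving out each kidney in turn gave 0 to 3, with 3 only without LIN28B Wt1 kidney 30. The cause was not tested. In the other comparisons no member passed under any alternative with an adjusted p.

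Over all genes, 194 passed in LIN28B Wt1, against 1246 with DESeq2, 401 with at least 1 CPM in every kidney, 95 with litter as a replicate block, 2 without both fat-containing controls (chosen after seeing the data), 1158 at the unadjusted threshold and 21 to 2074 when each kidney was left out in turn. In let-7 KO 3 passed, against 203 with DESeq2, 5 with 1 CPM required, 0 with the litter block, 5 in 1 fit of all 12 kidneys, 423 unadjusted and 0 to 5 with a kidney left out. Between controls 188 passed, against 681 with DESeq2, 104 in 1 fit of 12, 12 without both fat-containing controls and 36 to 308 with a kidney left out. Between models 1 passed, against 101 with DESeq2, 3 without a filter, 3 with 1 CPM required, 0 with the litter block and 1 to 6 with a kidney left out. The litter block changed no call among the 9 genes. With 3 kidneys a group, these counts rest on single kidneys.

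Signs turned with a kidney left out in LIN28B Wt1 for Tagln (-0.05 to 0.40) and Myl9 (-0.20 to 0.08), in let-7 KO for Cnn1 (-0.82 to 0.11), Pdgfrb (-0.27 to 0.23) and Pdgfra (-0.50 to 0.27), between controls for Myh11 (-0.59 to 0.26), Cnn1 (-0.12 to 0.81), Myl9 (-0.01 to 0.32, and -0.10 without both fat-containing controls) and Vim (-0.12 to 0.11), and between models for Cnn1 (-0.74 to 0.18).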
